A study of Homo sapiens with 4 samples.

Results

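The androgen receptor works with pioneer factors, which open chromatin for it, and with coactivators and corepressors, which it recruits once bound to DNA. The transcripts of 8 such partners were looked for in the expression data of LAPC4 cells: FOXA1, HOXB13 and GATA2 as pioneer factors, NCOA1, NCOA2, NCOA3 and NCOA4 as coactivators, and NCOR1 as a corepressor. All probe sets annotated to a single one of these genes were taken, which gave 14 of the 22277 probe sets on the array, for 6 of the 8 genes. No probe set of NCOA3 or NCOR1 was named in the annotation used here, and the transcript of the receptor itself is not analysed here. LAPC4 is an established cell line from a human prostate cancer that responds to androgen. The 4 arrays (Affymetrix U133) covered β-TrCP shRNA in CSS, β-TrCP shRNA in FCS, control vector in CSS and control vector in FCS, with 1 array per condition and 72 hours of treatment. FCS medium held 10% fetal calf serum and 100 pM methyltrienolone, a synthetic androgen, while CSS medium held 10% charcoal stripped serum, which is depleted of androgens. All cells carried a lentiviral vector: the shRNA was directed against both β-TrCP1 and β-TrCP2, and the control is a GFP vector in the sample labels but the shRNA vector without doxycycline in the study's description of its experiment. A change with the shRNA thus cannot be told apart from one with doxycycline or with the vector. With 1 array per condition, differences between 2 conditions were not checked by replicates and are given without a p-value.

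The androgen receptor is a transcription factor of the nuclear receptor family that is kept in the cytoplasm by chaperones until androgen binds it. In prostate epithelium it shares many of its binding sites with the forkhead protein FOXA1, the homeodomain protein HOXB13 and the zinc finger protein GATA2. The p160 coactivators NCOA1 (SRC-1) and NCOA2 (TIF2) carry LXXLL motifs, which bind nuclear receptors, and bring in histone acetyltransferases, whereas NCOR1 brings in histone deacetylases. NCOA4 was first described as an androgen receptor coactivator (ARA70) and is also the cargo receptor for the autophagy of ferritin.

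RefSeq promoter windows on GRCh38.p14, running from 250 bases before a start to 50 after it, were found for 6 of the 8 genes with 11 starts. They were searched on both strands for the forkhead core GNAAACA, the GATA motif AGATAA and the steroid receptor half-site AGAACA. A forkhead match was found in 3 of the 11 windows, compared with 18.0% of 35116 windows of the same length, a GATA match in 1 compared with 10.3%, and a half-site in 1 compared with 14.8%. The window of FOXA1 (chr14:37595200-37595499, minus strand) and that of the start of NCOA1 farthest downstream (chr2:24584227-24584526, plus strand) are shown because they hold the motif of a pioneer factor in a gene measured here. Capitals mark the matches. FOXA1 has 1 forkhead match, on the strand shown, and NCOA1 has 1 GATA match followed by 2 forkhead matches, these 3 on the opposite strand.
FOXA1: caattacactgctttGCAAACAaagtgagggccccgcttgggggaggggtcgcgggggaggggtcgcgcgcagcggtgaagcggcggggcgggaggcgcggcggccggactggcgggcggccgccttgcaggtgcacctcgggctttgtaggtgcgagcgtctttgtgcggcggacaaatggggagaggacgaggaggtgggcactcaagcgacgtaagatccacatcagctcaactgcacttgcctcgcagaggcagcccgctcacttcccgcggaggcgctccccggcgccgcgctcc
NCOA1: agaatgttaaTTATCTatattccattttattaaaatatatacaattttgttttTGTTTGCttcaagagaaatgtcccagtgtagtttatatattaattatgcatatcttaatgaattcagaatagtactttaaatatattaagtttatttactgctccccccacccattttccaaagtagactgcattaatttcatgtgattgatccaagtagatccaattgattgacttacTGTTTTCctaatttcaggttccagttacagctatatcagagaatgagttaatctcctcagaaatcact
These matches describe letters in the windows, and binding was not measured. Neither start of GATA2 and neither start of NCOA4 had a match to any of the 3 motifs.

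The shRNA target FBXW11 (β-TrCP2) checked the labels, with normalized log2 signals of 4.68 in shRNA cells in CSS, 5.02 in shRNA cells in FCS, 8.19 in control cells in CSS and 8.02 in control cells in FCS, and its second probe set also was lower on both shRNA arrays. Both kept probe sets of BTRC (β-TrCP1) were at the floor, a signal of 20 (log2 4.32), on the shRNA arrays and at most 4.64 on the control arrays. All 7 markers of luminal prostate epithelium were above the floor on every array. The array of shRNA cells in CSS stood apart: over the 15643 probe sets kept, it correlated with the other arrays at a Pearson r of 0.934 to 0.935, and they with each other at 0.979 to 0.989 (probe sets are no replicates). Its deposited values had an interquartile range of 2.07, compared with 2.69 to 2.74 on the others. Of 6 fibroblast markers 4 were kept, all 4 above the floor on that array and 2 on each of the others, with summed linear signals of 157 there and of 92.7 to 98.4 on the others. Of 6 leukocyte markers 2 were kept, at a summed signal of 53.4 on that array and at the floor on the others. Of 3 neuroendocrine markers 2 were kept, both above the floor on that array and 1 on each of the others, with sums of 58.0 there and of 41.8 to 43.4 on the others. The 2 basal epithelial markers kept had a sum of 98.4 on that array and of 87.3 to 102 on the others. The 1 endothelial marker kept was at the floor on all 4 arrays. The part of these differences in the results below was not tested. With the values as deposited, the median change of all probe sets on that array against the control in FCS was -0.16, compared with 0.00 after quantile normalization and 0.11 with a common median.

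No probe set of FOXA1, HOXB13 or GATA2 changed 2-fold in any comparison, although some changes exceeded the local spread defined below. FOXA1, a forkhead factor that opens chromatin at receptor binding sites, was read by 1 probe set, with a log2 signal of 9.28 in shRNA cells in CSS, 9.01 in shRNA cells in FCS, 9.21 in control cells in CSS and 8.91 in control cells in FCS. Both CSS arrays thus lay above both FCS arrays, although in the deposited values CSS changed FOXA1 by -0.04 in shRNA cells. Against the control in FCS the log2 change of FOXA1 was 0.37 with both treatments, 0.10 with the shRNA and 0.30 with CSS. The local spread, which is the robust SD of the log2 change over the 1000 probe sets of most similar signal and describes how far such probe sets differ between 2 arrays, was 0.34, 0.31 and 0.31 in these comparisons. FOXA1 thus exceeded it slightly with both treatments, while with the values as deposited that change was 0.05.

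HOXB13, a homeodomain factor of the prostate, had a log2 signal of 8.90 in shRNA cells in CSS, 8.70 in shRNA cells in FCS, 8.27 in control cells in CSS and 8.50 in control cells in FCS. Both shRNA arrays lay above both control arrays. The widest difference was that between the vectors in CSS, where HOXB13 was 1.55-fold higher with the shRNA, a log2 change of 0.63 against a local spread of 0.34. The same difference was 0.28 in the deposited values and 0.59 with a common median. In FCS the shRNA changed HOXB13 by 0.20, and CSS changed it by -0.23 in control cells, both within the local spread of 0.32.

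GATA2, a zinc finger factor that acts upstream of receptor binding, was read by 3 probe sets. One of them, 207954_at, was kept only through its deposited value on the array of shRNA cells in CSS and was at the floor on all 4 arrays after normalization, so that it gave no change. Probe set 209710_at had log2 signals of 7.99 in shRNA cells in CSS, 7.57 in shRNA cells in FCS, 7.98 in control cells in CSS and 7.87 in control cells in FCS. Probe set 210358_x_at, whose suffix marks probes that can match other transcripts too, had 7.13, 6.25, 6.78 and 6.58 on the same arrays. Both were lowest in shRNA cells in FCS, by -0.31 and -0.33 against the control in FCS, with local spreads of 0.36 and 0.30. With both treatments they changed by 0.12 and 0.56 against the control in FCS, the first of which was -0.39 in the deposited values and -0.11 with a common median. Within shRNA cells, CSS changed them by 0.43 and 0.89, and by -0.08 and 0.37 with the values as deposited.

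**Figure D1:**
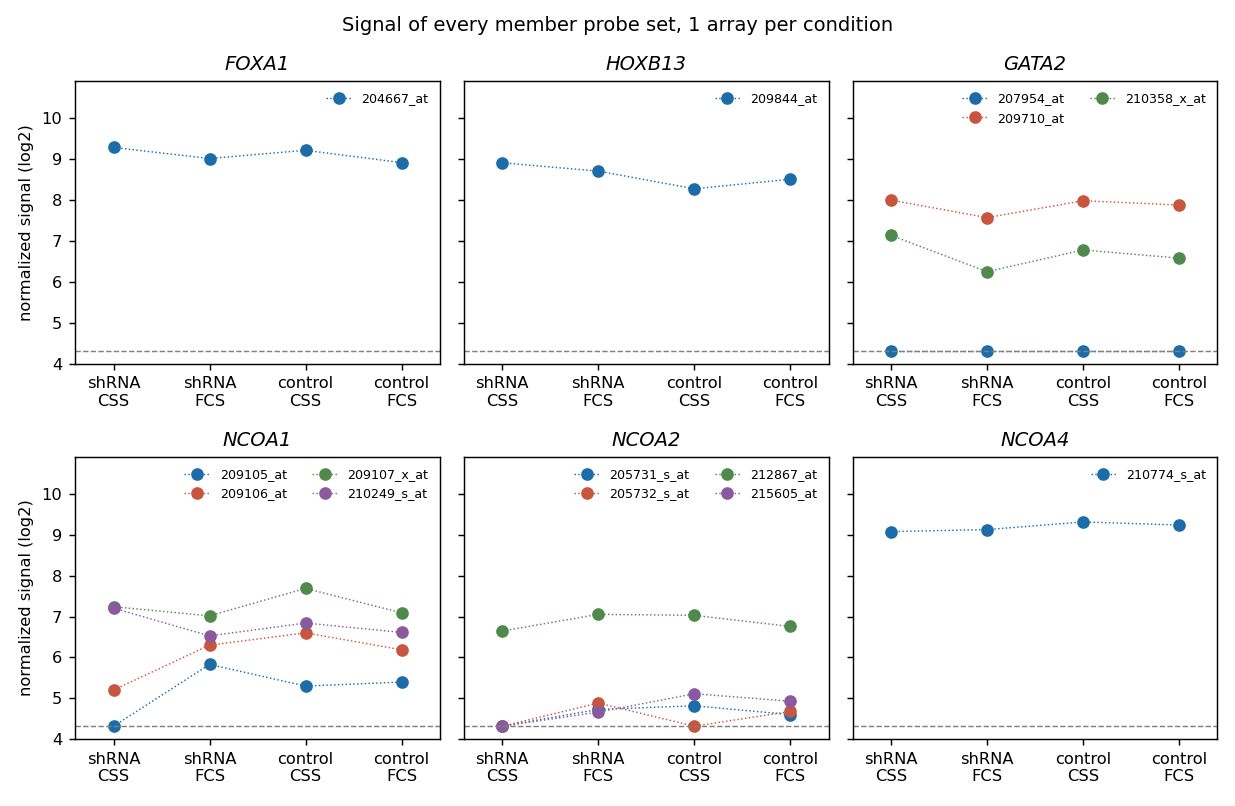
Normalized log2 signal of all 14 probe sets on the 4 arrays, 1 per condition, with a panel for each gene; the dashed line is the floor of 4.32 and dotted lines only join the points of a probe set. FOXA1 lies between 8.91 and 9.28 and NCOA4 between 9.07 and 9.31, whereas probe sets 209105_at and 209106_at of NCOA1 are lowest in shRNA cells in CSS, at the floor and at 5.21.

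NCOA1 had the widest range of the 6 genes, and its 4 probe sets did not go the same way in shRNA cells in CSS. Probe set 209105_at was at the floor of 4.32 in shRNA cells in CSS and had log2 signals of 5.83 in shRNA cells in FCS, 5.30 in control cells in CSS and 5.40 in control cells in FCS. Probe set 209106_at had 5.21 in shRNA cells in CSS, 6.30 in shRNA cells in FCS, 6.60 in control cells in CSS and 6.19 in control cells in FCS. For both, the array of shRNA cells in CSS lay well below the other 3. Against the control in FCS, 209105_at was at least 2.11-fold lower with both treatments after quantile normalization, and 209106_at was 1.97-fold lower. These were log2 changes of at most -1.08 and of -0.98, against local spreads of 1.18 and 0.90. In the deposited values, where 209105_at was at 4.37 in shRNA cells in CSS and above the floor, they were -1.07 and -1.13. With a common median they were -0.79 and -0.85.

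By contrast, 209107_x_at had log2 signals of 7.24 in shRNA cells in CSS, 7.02 in shRNA cells in FCS, 7.69 in control cells in CSS and 7.09 in control cells in FCS, with control cells in CSS the highest. The suffix of 209107_x_at marks probes that can match other transcripts too. Probe set 210249_s_at, whose suffix marks probes shared by several transcripts, had 7.21, 6.53, 6.84 and 6.61 on the same arrays and was highest in shRNA cells in CSS. With both treatments they changed by 0.15 and 0.59 against the control in FCS, with local spreads of 0.53 and 0.59. In the deposited values these changes were -0.38 and 0.09, and with a common median -0.10 and 0.37. After quantile normalization the changes of the NCOA1 probe sets thus spanned at least 1.67 in this comparison, since 209105_at has only a bound there. Among 310 genes with at least 4 probe sets with a change, bounds included, the median span was 0.92, and NCOA1 ranked 47 from the widest. With CSS alone 3 of the 4 NCOA1 probe sets were higher than in the control in FCS, by 0.41, 0.60 and 0.23, and 209105_at changed by -0.10, with local spreads of 0.28, 0.28, 0.28 and 0.22. With the shRNA alone 209105_at changed by 0.43 and the others by -0.08 to 0.11.

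NCOA2, the second p160 coactivator, was read by 4 probe sets, all of them lowest or at the floor in shRNA cells in CSS. Probe set 212867_at, the only one above the floor on all 4 arrays, had log2 signals of 6.65 in shRNA cells in CSS, 7.05 in shRNA cells in FCS, 7.03 in control cells in CSS and 6.76 in control cells in FCS. Each single treatment thus lay above the control in FCS, by 0.30 with the shRNA and 0.27 with CSS, and both treatments together changed it by -0.11. None of these values exceeded its local spread of 0.30, 0.30 and 0.63, and the combined change was -0.61 with the values as deposited and 0.00 when only probe sets reaching a signal of 100 were kept. The other 3 probe sets, with signals of at most 5.11, were at the floor in shRNA cells in CSS, so that each was lower there than in the control in FCS by a bound only, of at most -0.28, -0.36 and -0.61. Of these, 205732_s_at was also at the floor in control cells in CSS.

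NCOA4 varied least among the 6 genes, as read by the brightest probe set of each, that with the highest mean over the arrays. It had log2 signals of 9.07 in shRNA cells in CSS, 9.12 in shRNA cells in FCS, 9.31 in control cells in CSS and 9.23 in control cells in FCS. Both shRNA arrays lay below both control arrays, yet the changes of -0.16 with both treatments, -0.11 with the shRNA and 0.08 with CSS were all within the local spread of at least 0.31. In the deposited values the change with both was -0.47.

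Over all members, 13 probe sets of 6 genes had a change against the control in FCS, bounds included. With both treatments 1 of them, 209105_at of NCOA1, changed at least 2-fold, and it was lower, while 14.2% of the 14720 probe sets measured in that comparison changed at least 2-fold in either direction. None did so with the shRNA alone, where 1.08% of 13565 probe sets changed this far, and none with CSS alone, where 0.413% of 13548 did. Changes beyond the local spread were found for 4 of 13 members in each comparison, beside 22.3% of all probe sets with both treatments, 32.8% with the shRNA and 32.3% with CSS. With both treatments these were FOXA1, HOXB13, and 209106_at and 210249_s_at of NCOA1. With the shRNA they were 210358_x_at of GATA2, 209105_at of NCOA1, and 205732_s_at and 215605_at of NCOA2, at 0.21 and -0.27. With CSS they were 209106_at and 209107_x_at of NCOA1, and 205731_s_at and 205732_s_at of NCOA2, at 0.22 and at a bound of -0.36. In shRNA cells in CSS against control cells in CSS, 1 of 12 members changed at least 2-fold (13.9% of all probe sets), which was 209106_at of NCOA1 at -1.39, and 3 of 12 exceeded the local spread (22.3%). Over the brightest probe set of each of the 6 genes, the median log2 change was 0.13 with both treatments, 0.01 with the shRNA and 0.19 with CSS, compared with 0.00, 0.00 and 0.01 over all probe sets. The first of these depended on the scaling and was -0.38 with the values as deposited, where all probe sets had -0.16.

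**Figure D2:**
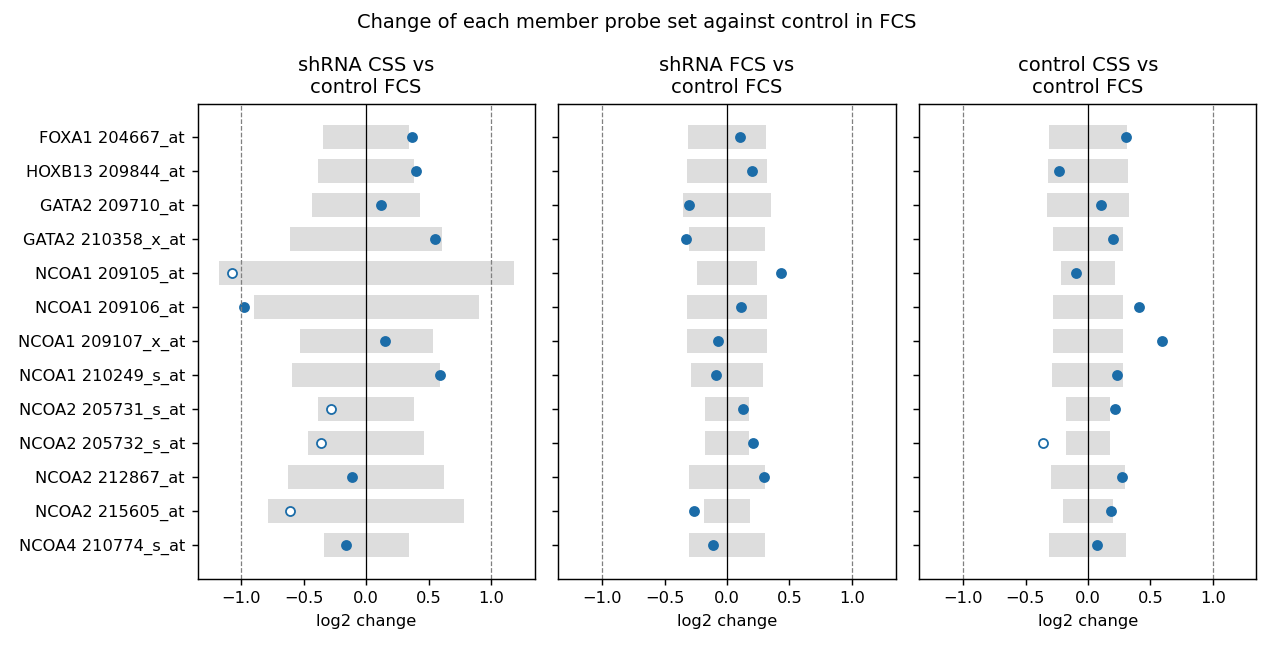
Log2 change of each of the 13 probe sets with a value against the control in FCS, for both treatments, the shRNA alone and CSS alone; grey bars span the local spread on either side of 0, open points are bounds from a probe set at the floor on 1 array, and dashed lines mark 2-fold. Only 209105_at of NCOA1 passes 2-fold, with both treatments, and its bar of 1.18 on either side is the widest.

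Main effects over all 4 arrays were tested with limma in an additive model of serum and vector. It has 1 residual degree of freedom, so that no interaction could be fitted. No member passed an adjusted p of 0.05 for the shRNA, while 3.18% of 15046 probe sets did, and none passed for CSS, while 2.20% did. HOXB13 came closest for the shRNA, with an effect of 0.42 (SE 0.15) and an adjusted p of 0.105, higher with the shRNA in both sera, its unadjusted p being 0.00467. FOXA1 came closest for CSS, with an effect of 0.29 (SE 0.12) and an adjusted p of 0.285, its unadjusted p being 0.0221. It was higher with CSS in both vectors after normalization, but changed by -0.04 in shRNA cells in the deposited values. At an unadjusted p under 0.05 there was 1 member of 13 for the shRNA, beside 1822 of all 15046 probe sets. For CSS there were 2 of 13, beside 1832 of all. These were FOXA1 and 205732_s_at of NCOA2, the latter at the floor on both CSS arrays. These errors came from the trend of the variance on mean signal alone, so that a probe set's own departure from additivity did not enter them. For HOXB13 that departure was 0.44, beside its shRNA effect of 0.42. The shRNA changed HOXB13 by 0.63 in CSS and by 0.20 in FCS, and the first of these was 0.28 in the deposited values. With a common median the adjusted p of HOXB13 in the same model was 0.562. Without the variance trend no probe set of the array passed for either factor.

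The change with CSS was furthest apart between shRNA cells and control cells in 2 probe sets of NCOA1, followed by 210358_x_at of GATA2 and 212867_at and 205731_s_at of NCOA2, as values without a test. For 209106_at it was -1.09 in shRNA cells and 0.41 in control cells, each beyond its local spread of 0.86 and 0.28. For 209105_at it was at most -1.51 in shRNA cells and -0.10 in control cells. For 210358_x_at of GATA2 it was 0.89 in shRNA cells, beyond its local spread of 0.64, and 0.20 in control cells, and the first of these was 0.37 with the values as deposited. For 212867_at of NCOA2 it was -0.41 in shRNA cells and 0.27 in control cells, both within their local spread of 0.60 and 0.30, and for 205731_s_at it was at most -0.41 in shRNA cells and 0.22 in control cells. HOXB13 had a change of 0.20 in shRNA cells and of -0.23 in control cells, while FOXA1 had nearly the same change in both, 0.27 in shRNA cells and 0.30 in control cells. These values use the array that stood apart, and with the values as deposited HOXB13 and FOXA1 changed by -0.15 and -0.04 in shRNA cells. In that comparison 2 of 13 members changed at least 2-fold, both of NCOA1, beside 14.0% of all probe sets, and 5 exceeded the local spread, beside 22.4% of all probe sets. In the same comparison the changes of the NCOA1 probe sets spanned at least 2.19. Among 310 genes with at least 4 probe sets with a change, bounds included, the median span there was 0.95, and NCOA1 ranked 16 from the widest.

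**Figure D3:**
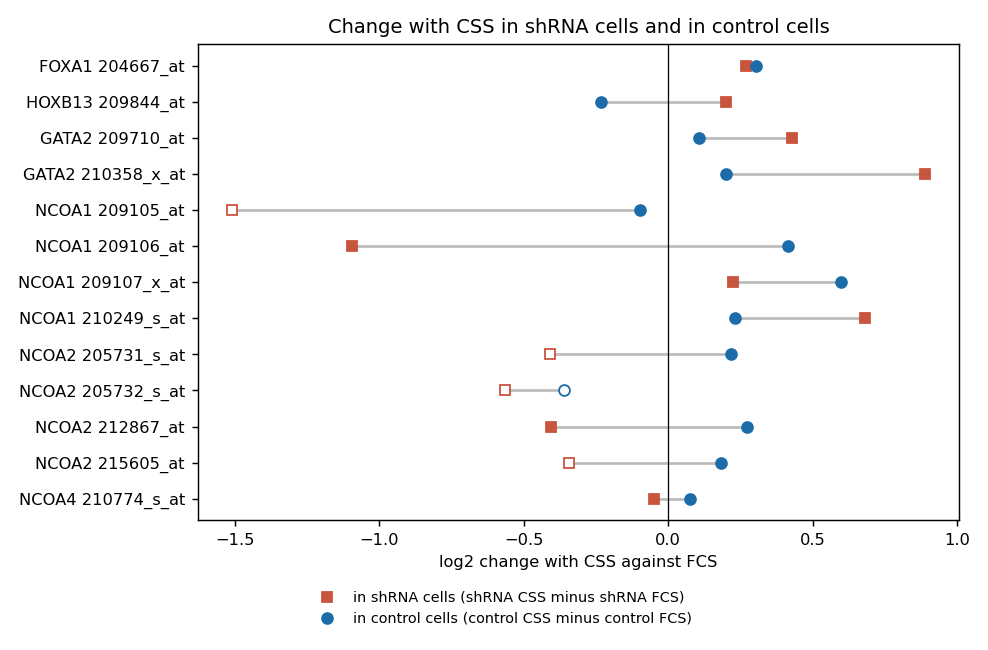
Log2 change with CSS against FCS for 13 probe sets, in shRNA cells (red squares) and in control cells (blue circles), 1 array per condition; open symbols are bounds from a probe set at the floor. Probe sets 209105_at and 209106_at of NCOA1 lie at -1.51 and -1.09 in shRNA cells, against -0.10 and 0.41 in control cells, while FOXA1 nearly coincides.

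The pattern of the brightest probe set of NCOA1 (209107_x_at) over the 4 arrays was set against those of 6964 genes above the floor on every array. The nearest, by the root mean square difference of log2 signals centred on each gene's mean, were GPR107 at 0.02, PURA at 0.03 and MAP7D1 at 0.03, where the median gene had 0.34. With only 4 arrays this describes likeness and no more. It holds for 209107_x_at alone, whose probes can match other transcripts too. Probe sets 209105_at and 209106_at of NCOA1 had another pattern, with shRNA cells in CSS the lowest.

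Other genes of the receptor machinery were taken from 6 lists, with the brightest probe set for each gene. Among 16 measured genes of coactivator complexes, which acetylate, methylate or remodel chromatin, 1 was at least 2-fold lower with both treatments and none higher, beside 6.90% of 8700 genes lower and 7.98% higher. That was KDM4C, a histone demethylase, at -1.01. SMARCA2, a remodelling ATPase, followed with -0.92, and SMARCE1, a subunit of the same family of complexes, with 0.67. The median of this list was -0.19 with both treatments, 0.22 with the shRNA and 0.18 with CSS, compared with 0.03, 0.00 and 0.02 over all genes. Only the change of SMARCE1 exceeded its local spread of 0.37, those of the other 2 being 1.23 and 1.13, and KDM4C was at -0.69 with a common median. Of 12 measured genes of corepressor complexes, 1 was at least 2-fold lower with both, SAP30, a subunit of the SIN3 deacetylase complex, at -1.69 against a local spread of 0.75, although its second probe set changed by 0.40. RCOR1, the corepressor CoREST, changed by -0.75 and CTBP1 by -0.38, against local spreads of 0.90 and 0.34, and the list had a median of 0.06. With the values as deposited the medians with both treatments were -0.53 for the coactivator list and -0.43 for the corepressor list. None of the genes in these 2 lists changed at least 2-fold with the shRNA alone or with CSS alone, where 1.20% and 0.301% of all genes did.

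None of 11 measured chaperones of steroid receptors changed at least 2-fold with any treatment, and their median with both was 0.09, and -0.23 with the values as deposited. DNAJB1, a co-chaperone of the heat shock protein HSP70, had the largest change with both treatments at -0.64, and was at -0.96 with the shRNA alone. Its change with both was -1.18 in the deposited values. ST13, which links HSP70 and HSP90, and BAG1, an exchange factor for HSP70, changed by 0.42 and 0.38 with both, the second of which was -0.13 with the values as deposited. The 2 other probe sets of ST13 lay between -0.90 and 0.11, and the other one of BAG1 was at -0.21. Among 20 measured other coregulators, 2 were at least 2-fold higher with both treatments, PIAS4 and PIAS3, which are SUMO ligases, at 1.30 and 1.06 against local spreads of 0.76 and 0.73. In the deposited values neither reached 2-fold, at 0.85 and 0.58. RNF14 (ARA54), a ubiquitin ligase, was lower by -1.45, and its second probe set by -2.01, whereas the second probe set of PIAS4 changed by -0.87. This list had a median of 0.18, and of -0.19 with the values as deposited.

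Of 12 transcription factors kept that are related to or work with the members, FOXA2 and HOXB7 were at the floor in the control in FCS and gave only bounds with both treatments, and 1 of the others was at least 2-fold lower with both treatments, GATA6, a relative of GATA2, at -1.39 against a local spread of 1.21. Its change was 0.41 with the shRNA alone, beyond the local spread of 0.28, and 0.01 with CSS alone. TFAP4 and ELK4 changed by -0.73 and -0.71 with both, within their local spreads of 1.09 and 1.28, and by -0.31 and -0.33 with a common median. The list had a median of 0.09 with FOXA2 and HOXB7 at their bounds, which was -0.42 with the values as deposited. NR3C1, the glucocorticoid receptor, which shares DNA elements with the androgen receptor, was the only gene of the list past 2-fold with the shRNA alone, and was described further after its value was seen. Its probe set 201865_x_at had log2 signals of 5.27 in shRNA cells in CSS, 6.39 in shRNA cells in FCS, 5.40 in control cells in CSS and 5.15 in control cells in FCS, so that shRNA cells in FCS stood above the other 3. The change with the shRNA in FCS was 1.24 against a local spread of 0.25, and the other 3 probe sets of NR3C1 also were highest on that array, 211671_s_at by 1.22 against the control in FCS. With both treatments 201865_x_at changed by 0.12, so that adding CSS to the shRNA changed it by -1.12, against a local spread of 0.84.

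Of 7 genes kept from a list of genes described as androgen-induced, 6 were lower with both treatments, with a median of -0.69. For 1 of these, ACP3, at the floor on both CSS arrays, this was a bound of -0.13 only. With the shRNA alone all 7 were lower, with a median of -0.55. With CSS alone 4 were higher and 3, including ACP3, lower, with a median of 0.31. Since 4 were higher in medium depleted of androgens, the list is not read here as a measure of receptor activity. At least 2-fold lower with both were KLK2, a kallikrein, at -1.71 and PMEPA1 at -1.07, beside 6.90% of all genes. Their local spreads were 0.48 and 1.24, and PMEPA1 was at -0.72 with a common median. The 2 other probe sets of KLK2 lay between -0.90 and -0.45 with both. KLK2 changed by -1.23 with the shRNA and by 0.70 with CSS, against local spreads of 0.35 and 0.32. FKBP5, a co-chaperone that androgen induces, changed by -0.76 with both, -0.80 with the shRNA and -0.88 with CSS. The study picked KLK2 from these arrays, so that its direction is not independent evidence. The medians in the deposited values were -1.04 with both and -0.53 with the shRNA. The median of these genes was thus -0.69 and -0.55 on the shRNA arrays, whereas the members' median was 0.13 and 0.01 there. This difference was not tested.

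**Figure D4:**
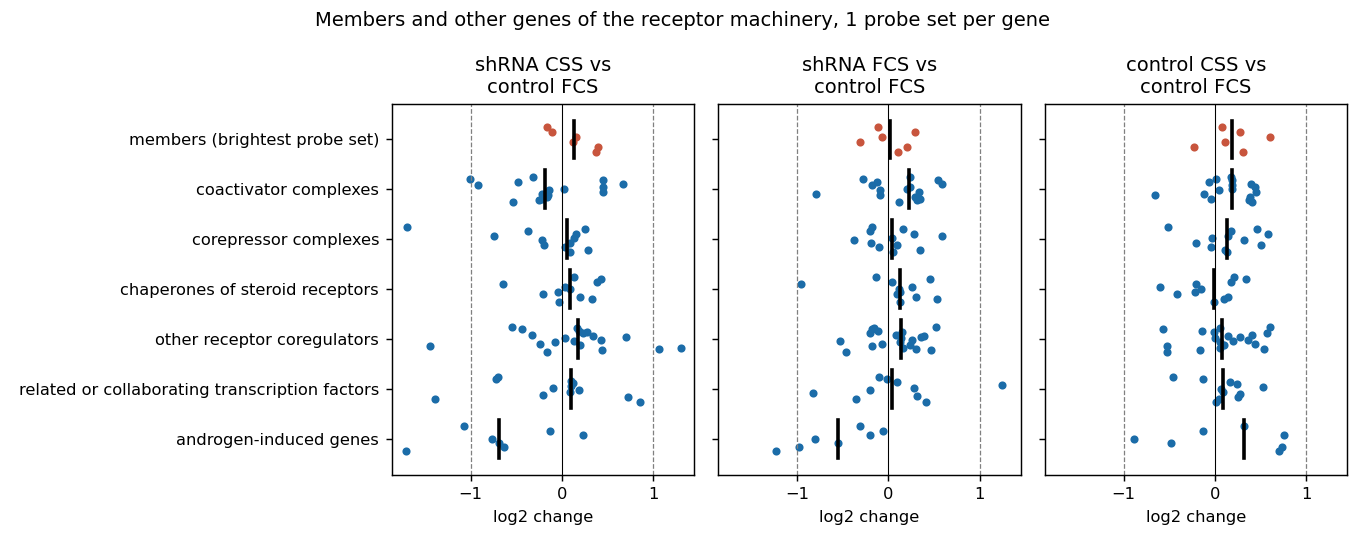
Log2 change against the control in FCS of the members and of the genes of 6 lists, 1 point per gene from its brightest probe set, for both treatments, the shRNA alone and CSS alone; black lines are medians and dashed lines mark 2-fold. The 6 members lie between -0.16 and 0.40 with both treatments, and the androgen-induced genes have medians of -0.69, -0.55 and 0.31; genes at the floor on 1 array (FOXA2, HOXB7 and ACP3) are drawn at their bound.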

How the data were processed

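RNA of LAPC4 cells was measured on 4 arrays, 1 per condition, mapped to conditions from the sample labels. The deposited values are log2 signals of all 22277 probe sets, for which the authors name MAS5 (per the labels and their methods). A cut at an intensity of 20, a filter on present calls and quantile normalization, also named by the authors, do not show in the table. All but the present calls were applied here. Whether the deposited values are MAS5 signals unchanged was not tested, and depth is not defined for arrays, whose number limits the precision.

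Of all probe sets, 19070 have 1 gene in the annotation, 1043 have several and 2164 have no gene, and symbols were updated through gene identifiers in RefSeq. After removal of 62 control probe sets, those with a signal of at least 20 on 1 array (15643 probe sets, 9193 genes) were quantile normalized and set to a floor of 20. Levels at the floor on 1 of 2 arrays give a bound, and on both no change. The local spread is the median absolute deviation, multiplied by 1.48, over the 1000 probe sets nearest in mean signal. The additive model was fitted to the 15046 probe sets not at the floor on all arrays in limma (3.58.1, under R 4.3.3), with a variance trend and two-sided Benjamini-Hochberg adjusted p-values, its prior degrees of freedom being estimated as infinite. Both steps were run on simulated data with equal noise on all arrays, shRNA changes in bright probe sets only and no interaction. That setting is unlike the array that stood apart and the dim probe sets, so that it does not show how the steps behave there. The remaining work was done in Python (3.11.15) with the packages numpy (2.4.6) and pandas (2.3.3).

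The members and lists were chosen with earlier results of these data known. The genes named are all members, the shRNA targets, from each list the 3 genes measured above the floor whose change with both treatments was largest, and the 3 genes nearest to NCOA1. Outside this rule, NR3C1 was named after its values were seen, and ACP3, FOXA2 and HOXB7 because they have only bounds. As alternatives, the deposited values, scaling to a common median, the distribution of the 3 arrays other than shRNA cells in CSS, no floor or one of 100, no filter or one of 100, thresholds of 1.5-fold and 3-fold, averaging each gene's probe sets, and limma without the trend were used.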

Additional observations from a re-analysis of the deposited data

Results flagged for a closer look

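NCOA1 probe set 209106_at changed with CSS by -1.09 on the log2 scale in shRNA cells and by 0.41 in control cells, in opposite directions and each beyond the local spread of its comparison. The difference was not tested, since each value is a difference of 2 single arrays, and the first uses the array that stood apart. The other 3 probe sets of NCOA1 did not share it: with CSS, 209107_x_at changed by 0.22 in shRNA cells and 0.60 in control cells, 210249_s_at by 0.68 in shRNA cells and 0.23 in control cells, and 209105_at by at most -1.51 in shRNA cells and by -0.10 in control cells. Of all probe sets, 22.4% exceeded the local spread with CSS in shRNA cells and 32.3% with CSS in control cells. How many of them did both, in opposite directions, was not counted.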

How the results depend on the processing

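Of 403 values of single member probe sets under 7 alternatives, 391 differed from the reported value by less than the local spread, 12 moved further, and 15 changed sign, 10 of these with the values as deposited, all in comparisons with the array of shRNA cells in CSS. No change of 2-fold reversed. The count of members changed at least 2-fold with both treatments, 1 as reported, was 2 with the values as deposited or with the distribution of the other 3 arrays, 4 at a 1.5-fold threshold, and 0 with a common median, a floor of 100, a filter of 100 or a 3-fold threshold. For the shRNA in CSS, 1 as reported, it was 2 with the distribution of the other 3 arrays, 3 without a floor, 4 at 1.5-fold, and 0 with a floor or filter of 100 or at 3-fold. For CSS in shRNA cells, 2 as reported, it was 1 with a common median, 4 at 1.5-fold, and 0 with a floor or filter of 100 or at 3-fold. For CSS in control cells it was 0 as reported and 1 at 1.5-fold, and for the shRNA in FCS 0 throughout. Of all probe sets, 15.5% changed 2-fold with both treatments in the deposited values and 16.2% with the distribution of the other 3 arrays. At 1.5-fold, 33.7% of all probe sets passed with both treatments, 32.9% for the shRNA in CSS and 33.1% for CSS in shRNA cells. This share was 5.23% for CSS in control cells and 6.21% for the shRNA in FCS. A floor or filter of 100 leaves fewer dim probe sets, and 209105_at of NCOA1 has no value under either.

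With the values as deposited, the median change of the member genes was -0.38 with both treatments, -0.49 for the shRNA in CSS and -0.24 for CSS in shRNA cells, instead of 0.13, -0.11 and 0.21, while all probe sets had medians of -0.16, -0.17 and -0.17. Under the other alternatives these medians moved by less than the local spread. No member passed the threshold in limma under any alternative run, the lowest adjusted p being 0.105 to 0.745 for the shRNA and 0.184 to 0.806 for CSS; without the trend no probe set passed. No paired analysis was possible because each condition has a single array, and no array could be left out of the additive model, which has 1 residual degree of freedom.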
